A study of Saccharomyces cerevisiae with 11 samples.

Results

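The genes described here encode the factors with which budding yeast (Saccharomyces cerevisiae) chooses a start codon, together with eIF5A, a factor that acts mainly in elongation. They are TIF11 (eIF1A), SUI1 (eIF1), TIF5 (eIF5), SUI2, SUI3 and GCD11 (the alpha, beta and gamma subunits of eIF2), FUN12 (eIF5B), and the paralogs HYP2 and ANB1 (both eIF5A). These 9 genes were chosen by name from the deposited annotation of the SK1 strain, which holds 6707 genes, and every row of the deposited rating table assigned to them was used, 264 of 192230 candidate open reading frames (ORFs). The table came from ribosome profiling, which sequences the RNA fragments protected by ribosomes. The libraries of the series came from SK1 cells treated with 3 µM lactimidomycin (LTM), which stalls ribosomes that have just begun translation. The table also holds values of a second data set, named CHX. The 11 libraries were vegetative cultures in exponential growth (OD600 0.6) or saturation (OD600 10), cultures 0, 1.5, 3, 4.5, 6, 8, 10 and 22 h after transfer to sporulation medium, and a MATa/a culture at 4.5 h, a mating-type state that does not enter meiosis. The labels name no allele other than the MATa/a state, and all cells received the drug. Each group had 1 library, and the table gives 1 value per ORF without columns for single libraries. No value has a replicate, no condition can be compared, and the depth behind a value is unknown.

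During initiation, a small ribosomal subunit carrying eIF1, eIF1A, eIF5 and eIF2 with the initiator tRNA scans the leader of an mRNA from its 5′ end. eIF1 and eIF1A keep the complex open to scanning, and eIF1 hinders a start at codons other than AUG or in a poor sequence context. Recognition of a start codon releases eIF1. eIF5 promotes GTP hydrolysis by eIF2, and eIF5B later promotes the joining of the large ribosomal subunit. In yeast and in other eukaryotes the start codon of the eIF1 gene itself is known to lie in a poor context, through which eIF1 limits its own synthesis. eIF5A helps ribosomes through peptide bonds that form slowly. Its paralogs in yeast are used under different conditions, HYP2 in the presence of oxygen and ANB1 when oxygen is scarce.

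The bases around the annotated start codons are shown first because start context is a feature that eIF1 and its partners read, and because that of the eIF1 gene is known to be poor. Sequences are those of the S288C reference (R64, RefSeq), read 5′ to 3′ as DNA with 12 bases before and 6 bases after the start codon, which is in capitals. No SK1 sequence was used, and S288C positions are not those of SK1.
TIF11 (chrXIII:789831-789851, minus strand): gcaaagttcatcATGggtaag
SUI1 (chrXIV:187488-187508, minus strand): gaagcaaatcgtATGtccatt
TIF5 (chrXVI:648692-648712, plus strand): cactggtacaagATGtctatt
SUI2 (chrX:451008-451028, plus strand): atacaccaaataATGtccact
SUI3 (chrXVI:100484-100504, plus strand): agcacgcacgagATGtcctcc
GCD11 (chrV:205239-205259, plus strand): ttagaggtagacATGagtgac
FUN12 (chrI:76415-76435, plus strand): gataagtgaaagATGgcgaaa
HYP2 (chrV:85664-85684, plus strand): ctcatatatacaATGtctgac
ANB1 (chrX:525373-525393, minus strand): acacactaaaacATGtctgac

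An A stood at the third base before the start codon in 6 of the 9 genes, a G in SUI3 and GCD11, and a C in SUI1. Among 4947 annotated starts of the table that could be read in S288C, A stood there in 62.6%, G in 19.4% and C in 8.49%. The 3 bases before the SUI1 start (cgt) preceded only 12 of the 4947 starts (0.243%). Scored by how often each of the 3 bases occurs at its position among those starts, the context of SUI1 ranked at percentile 2.30, the lowest of the 9. HYP2 ranked at percentile 84.1, ANB1 at 79.1, SUI2 at 73.9, and TIF5 and FUN12, which share the same 3 bases, at 66.1. TIF11 (43.1), GCD11 (38.6) and SUI3 (32.9) were below the middle. With 6 bases before and 1 base after the start, SUI1 remained lowest at 2.21, while HYP2 moved to 58.0, FUN12 to 81.1 and TIF11 to 57.5. These are ranks of the reference sequence and carry no measurement of the cells.

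**Figure D1:**
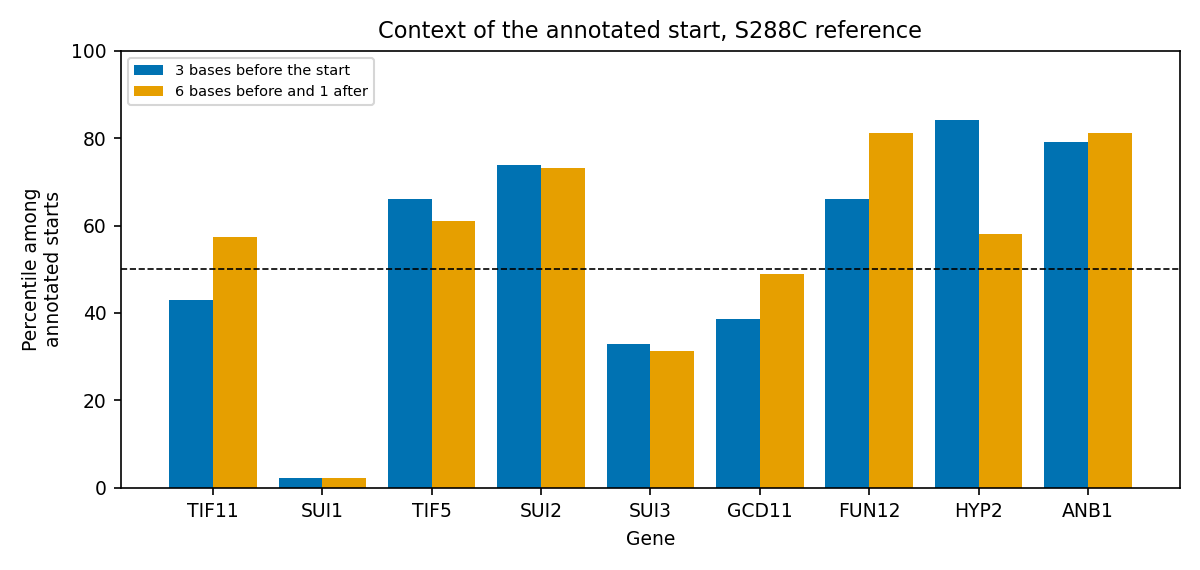
Percentile (vertical axis, 0 to 100) of the start context of each gene (horizontal axis) among 4947 annotated starts of S288C, from the 3 bases before the start (blue) and from 6 bases before and 1 after it (orange); the dashed line marks the middle. SUI1 lies at 2.30 and 2.21, and the other genes lie between 31.4 and 84.1.

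The annotated start had a high score in all 9 genes. The authors' random forest gave each candidate ORF a score from 0 to 1, and an ORF is called rated here at a score above 0.5. The forest had been trained with annotated coding sequences, and 93.1% of all 4986 ORFs at an annotated start were rated, so 9 of 9 is no result about these genes. HYP2 had the highest score, 0.967, above 95.4% of the annotated starts, followed by SUI2 at 0.952, SUI1 at 0.940, ANB1 at 0.939, TIF11 at 0.934 and FUN12 at 0.929. GCD11 (0.838), SUI3 (0.798) and TIF5 (0.785) were lower and lay below the median of all annotated starts, 0.894. SUI1 thus scored at percentile 80.5 with the rarest context among the 9. The scores of the subunits of eIF2 ranged from 0.798 to 0.952.

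LTM evidence is the name used here for the deposited W statistic of a start codon, a score without a stated scaling to depth or length. It was 55932 at the start of HYP2, at percentile 99.1 of annotated starts. It was 7352 at the start of SUI1 (percentile 72.2), 5410 at TIF5 (64.3), 5162 at SUI2 (63.1), 3664 at TIF11 (55.2) and 3460 at FUN12 (53.8). ANB1 (2613, percentile 47.3), SUI3 (1991, percentile 41.8) and GCD11 (1938, percentile 41.3) lay just below the median of 2947. The gene for aerobic eIF5A therefore had 21.4 times the LTM evidence of its paralog for low oxygen. In the second data set of the table, named CHX and not described further by the authors, the regression value summed over the ORFs of the stop codon was 152 for HYP2 and 1.05 for ANB1, a ratio of 145. At the annotated start alone the CHX value was 16.4 for HYP2 and 0.393 for ANB1. Only 5 other candidates of HYP2 end at this stop codon, and none was higher. The sum of 152 is therefore larger than the candidates described here can add up to. LTM evidence and the CHX value are different measures, so ratios of one and of the other are not comparable in size. No error can be given for the ratios of 21.4 and 145. The W statistic also need not rise in proportion to the regression value. In the CHX set, W was 285 at the annotated start of SUI1 and 0.0346 at an AAG 105 nucleotides upstream. The regression values of these starts were 3.86 and 0.0393. All ratios of LTM evidence given here are therefore ratios of a score and not fold differences in initiation.

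The coding sequences of HYP2 and ANB1 were compared because reads from identical stretches could be placed in either gene. In S288C both are 474 bases long and 90.9% identical, and their proteins share 142 of 157 residues. Of 447 windows of 28 bases in ANB1, about the length of a ribosome footprint, 39 (8.72%) also occur in HYP2. At the annotated start, a window beginning 12 bases before the AUG differs at 9 bases between the genes. Their leaders share only 32 of the last 100 bases when set side by side without gaps. Footprints at the starts of the paralogs can thus be told apart by sequence, whereas how the authors treated reads that match both is not given in the sources used here.

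In the coordinates of the deposited SK1 annotation, the ORFs at the annotated starts lie at 778800 to 778339 of chromosome 13 for TIF11 (153 codons), 205566 to 205240 of chromosome 14 for SUI1 (108 codons), 661851 to 663065 of chromosome 16 for TIF5 (404 codons), 465381 to 466295 of chromosome 10 for SUI2 (304 codons) and 108545 to 109402 of chromosome 16 for SUI3 (285 codons). Those of GCD11 (527 codons) and HYP2 (157 codons) lie at 210912 to 212495 and 89443 to 89916 of chromosome 5, that of FUN12 (1001 codons) at 85476 to 88481 of chromosome 1, and that of ANB1 (157 codons) at 540823 to 540350 of chromosome 10. For TIF5 the annotation ends at 663068, past the stop codon of the table, and the authors gave its ORF at the annotated start another class than that of the other 8 genes. ORFs were therefore sorted by position for all genes alike. Leader ORFs begin before the annotated start and end at another stop codon, extensions begin before it and end at the gene's stop codon, truncations begin inside the gene and end at its stop codon, and internal ORFs begin inside it and end elsewhere.

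**Figure D2:**
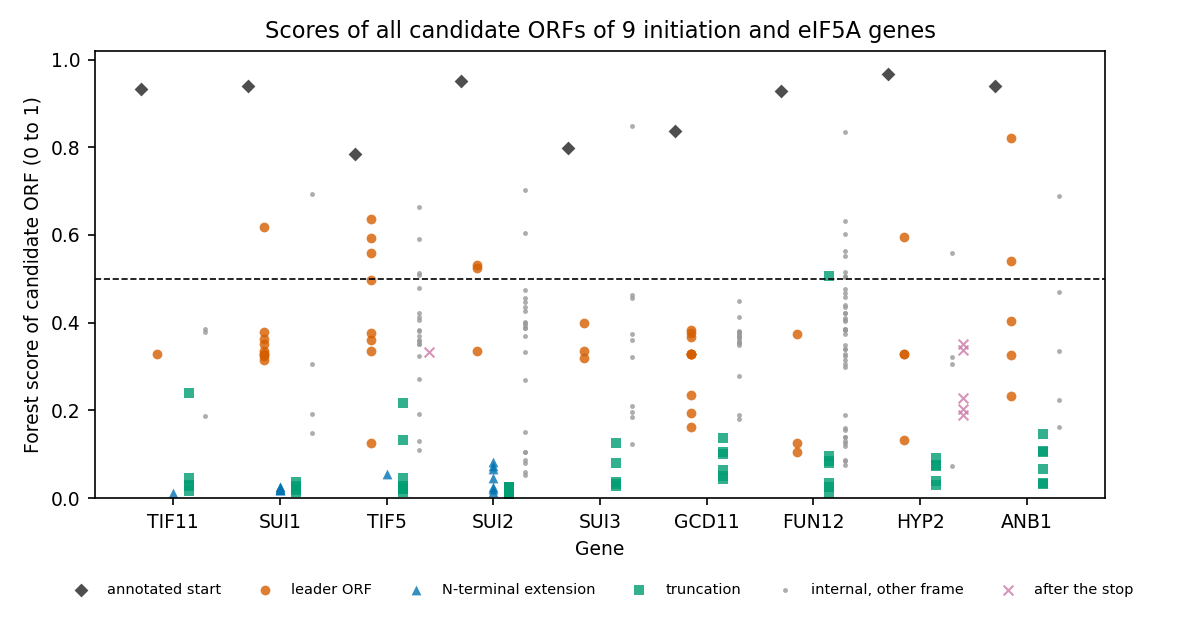
Forest score (vertical axis, 0 to 1) of all 264 candidate ORFs of the 9 genes (horizontal axis), each point being 1 ORF, with symbols by position relative to the annotated coding sequence; the dashed line marks 0.5. Annotated starts lie between 0.785 and 0.967, all 14 extensions below 0.1, and the highest leader ORF, in ANB1, at 0.820.

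Of the 264 candidates, 37 were rated (14.0%, exact 95% interval 10.1 to 18.8), beside 13.5% of all candidates in the table. Leader ORFs were rated in 9 of 46 cases (19.6%, exact 95% interval 9.36 to 33.9), against 21.8% of all 40404 leader candidates. These 9 belonged to 5 genes, namely ANB1, TIF5, SUI2, SUI1 and HYP2. No leader ORF was rated in TIF11, SUI3, GCD11 or FUN12. Among all genes with a leader candidate, 62.6% had a rated one, and 61.8% of genes with a leader or extension candidate had either rated. The shares of the 9 genes lay close to these backgrounds, and no property particular to them is read from the counts. Leader candidates of 1 gene can share a stop codon and are not independent. Some also lie within the length of a footprint of each other or of the annotated start, and can share reads.

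All 9 rated leader ORFs began at near-cognate codons, which have 1 base other than those of AUG, 4 at UUG, 3 at AUU, 1 at ACG and 1 at AUC. Near-cognate leader starts were rated in 9 of 36 cases (25.0%, exact 95% interval 12.1 to 42.2), beside 18.8% in the whole table. UUG starts were rated in 4 of 8 cases (exact 95% interval 15.7 to 84.3%), beside 33.4%. None of the 10 AUG leader starts, in SUI1, GCD11, SUI3 and HYP2, was rated (0 of 10, exact 95% interval 0 to 30.8%), beside 31.3% of all AUG leader starts. These AUG codons lay 113 to 360 nucleotides (median 256) before the annotated start and scored 0.193 to 0.400. The 31.3% covers AUG leader starts at all distances, and no share of AUG starts by distance was computed. The rated leader starts lay 5 to 118 nucleotides before it. Within 150 nucleotides of the annotated start 9 of 30 leader starts of these genes were rated (30.0%), beside 27.2% of all, and farther away 0 of 16, beside 16.1%.

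The leader starts that carry these results are shown in their S288C sequence, where each codon and its ORF were the same as in the table. Capitals mark the start codons named on each line, and TIF5 is given on separate lines because its starts lie in different frames. The first line begins 9 bases before the UUG of ANB1 and ends with the stop codon of its ORF.
ANB1, UUG and AUU (chrX:525423-525452, minus strand): tcccttaccTTGttcctaATTattgtctag
TIF5, UUG (chrXVI:648583-648603, plus strand): cttcccactTTGctgacttac
TIF5, AUU and the unrated AUA (chrXVI:648667-648693, plus strand): cctattATTtgcATAaacacacgttca
TIF5, UUG (chrXVI:648667-648693, plus strand): cctattatTTGcataaacacacgttca
SUI2, AUU and the UUG that begins a base later (chrX:450896-450925, plus strand): tcaaccATTGtttatttcctaggtcattaa
SUI1, AUC (chrXIV:187481-187510, minus strand): ctgaagcaaATCgtatgtccattgagaatc
HYP2, ACG (chrV:85598-85624, plus strand): ttctttctaACGattctacttctgtag

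ANB1, the eIF5A gene used at low oxygen, had the leader start with the highest score and the highest LTM evidence of the 9 genes. A UUG 62 nucleotides before the AUG, at 540885 of SK1 chromosome 10, opens an ORF of 6 codons that ends before the coding sequence, and it scored 0.820. Its LTM evidence was 1455, which is 0.557 times that of the annotated AUG of ANB1. The regression value of the same start in the CHX set, a measure of another kind than LTM evidence, was 0.165 times that of the annotated start. The ratios 0.557 and 0.165 are therefore not comparable in size. By the ratio of the CHX value to that of the annotated start, the UUG of ANB1 was not the highest leader start. The AUU of TIF5 31 nucleotides upstream reached 0.722 times the annotated start of its gene. An unrated ACG of SUI3 5 nucleotides upstream reached 0.508 times that of SUI3. Other leader starts of TIF5 had higher ratios too, among them an unrated ACG 17 nucleotides upstream (0.365 times). The rated UUG codons of TIF5 29 and 112 nucleotides upstream reached 0.264 and 0.218 times. The annotated start of TIF5 itself had a low CHX value, 0.0625 beside 0.393 in ANB1. These ratios therefore do not order leader starts of different genes by the CHX value itself. In ANB1, an AUU in the frame of the UUG, 53 nucleotides before the AUG, scored 0.542 with 0.00757 times the LTM evidence of the annotated start. The other 3 leader starts of ANB1 were unrated, among them UUG codons 107 and 120 nucleotides upstream at 0.232 and 0.327. The UUG at 62 nucleotides thus stood far above the other UUG codons of the same leader in both the score and the evidence.

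HYP2 differed from its paralog in this respect. Its only rated leader start was an ACG 69 nucleotides before the AUG, at 89374 of chromosome 5, with an ORF of 5 codons and a score of 0.596. The LTM evidence there was 1.65, which is 2.9e-05 times that of the annotated start. The leader starts at AUC, UUG and AUG of HYP2, 96, 131 and 360 nucleotides upstream, scored 0.133, 0.328 and 0.329. A rating in HYP2 therefore went with evidence far below that of the UUG in ANB1, and the score alone does not order the starts by their LTM evidence. The difference between the paralogs was not tested, since neither value has a replicate.

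TIF5, which encodes the GTPase-activating factor eIF5, had the most rated leader ORFs, 3 of 8. The UUG 112 nucleotides upstream (661739 of chromosome 16, 40 codons) scored 0.594, the AUU 31 nucleotides upstream (661820, 13 codons) 0.636 and the UUG 29 nucleotides upstream (661822, 46 codons) 0.559. All 3 ORFs run past the annotated AUG in another frame, and those from the first UUG and the AUU share a stop codon at 661861. The LTM evidence was highest at the UUG 29 nucleotides upstream, at 120, or 0.0222 times the annotated start. The AUA 25 nucleotides upstream fell just short of the threshold, at 0.498, with 0.0130 times the evidence of the annotated start. The AUU, this UUG and the AUA lie within the length of a footprint, can share reads and are not separate observations. The AUU had 0.722 times the CHX regression value of the annotated start of TIF5, which was itself low at 0.0625 and only 0.147 times that of the strongest start with the same stop codon.

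SUI2, the alpha subunit of eIF2 that is phosphorylated when cells lack amino acids, had 2 rated leader starts among 3. The AUU at 465263 of chromosome 10, 118 nucleotides upstream, scored 0.531 with an ORF of 7 codons, and the UUG that begins a base later scored 0.524 with an ORF of 4 codons. The UUG had LTM evidence of 105, or 0.0203 times the annotated start, and the AUU 2.49. In the CHX set the order was the other way, with 0.0660 times the annotated start's value for the AUU and 0.00449 times for the UUG. Both scores lay just above the threshold of 0.5. The AUU and the UUG lie a base apart, can share reads and are not separate observations.

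SUI1, the gene with the rare context, had 9 leader candidates, of which only an AUC was rated. This AUC lies 5 nucleotides before the AUG (205571 of chromosome 14), overlaps the bases of the context and opens an ORF of 7 codons across the annotated start, with a score of 0.618. Its LTM evidence was 4.86, which is 0.000661 times that of the AUG. The AUC lies within the length of a footprint of that AUG and can share reads with it. A CUG 14 nucleotides upstream in the same frame had more evidence, 10.9, but was unrated at 0.379. All 4 AUG candidates of the SUI1 leader, 220 to 311 nucleotides upstream, scored between 0.324 and 0.362. Of the 9 leader candidates of SUI1 only 2 had the same codon at the same distance in S288C, so the far ones are given without sequence.

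**Figure D3:**
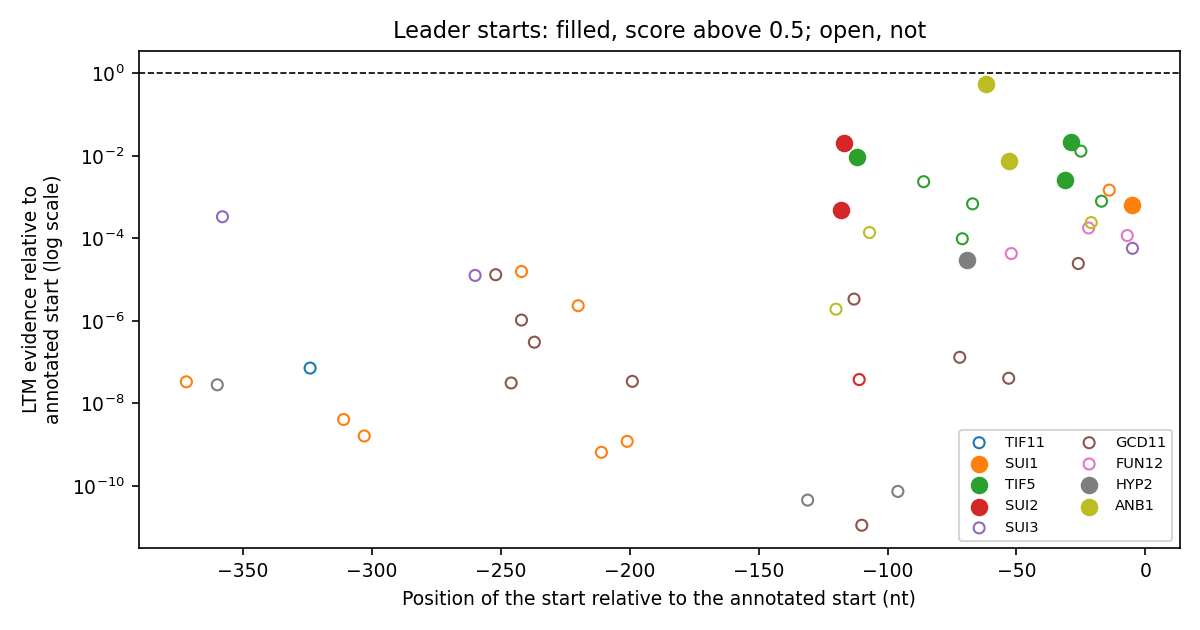
LTM evidence at each of the 46 leader starts relative to the annotated start of its gene (vertical axis, log scale) against its position in nucleotides from that start (horizontal axis); filled points are rated, open points are not, and the dashed line marks equal evidence. The UUG of ANB1 at 62 nucleotides upstream, with 0.557, is the only leader start above 0.1, and no start beyond 118 nucleotides is rated.

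The genes without a rated leader ORF differed in how many candidates they had. GCD11, which encodes the GTP-binding subunit of eIF2, had 10 candidates with scores from 0.163 to 0.383, and its 3 AUG codons, 252, 199 and 113 nucleotides upstream, scored 0.193, 0.328 and 0.236. SUI3 had 3, with AUG codons 358 and 260 nucleotides upstream at 0.400 and 0.336 and an ACG 5 nucleotides upstream at 0.319. FUN12 had 3 candidates, all running across the annotated AUG, at 0.105 to 0.374. TIF11 had a single candidate, an AUU 324 nucleotides upstream at 0.328. That score of 0.328 was the commonest value of the whole table. It was given to 1627 of all 40404 leader candidates (4.03%) and to 8 of the 46 described here (17.4%).

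The strongest leader start of each gene was then set against its annotated start over all 4776 genes with both values. Over the whole table the ratio had a median of 0.00569, with quartiles at 0.000170 and 0.218, and the strongest leader start exceeded the annotated start in 16.8% of genes. Over the 9 genes the median was 0.000335, and none exceeded its annotated start. The ratio also depends on the LTM evidence of the annotated start. This was 1938 or more in the 9 genes, whereas over all 4986 annotated starts the lower quartile was 600. ANB1 lay at percentile 80.3, TIF5 at 59.7, SUI2 at 59.2 and SUI1 at 40.4. SUI3 (29.8), FUN12 (25.6), HYP2 (15.5), GCD11 (14.6) and TIF11 (1.39) lay lower. The ratio of ANB1 was found or exceeded in 939 genes, ANB1 included (19.7%), so a ratio that high is not rare in the table.

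**Figure D4:**
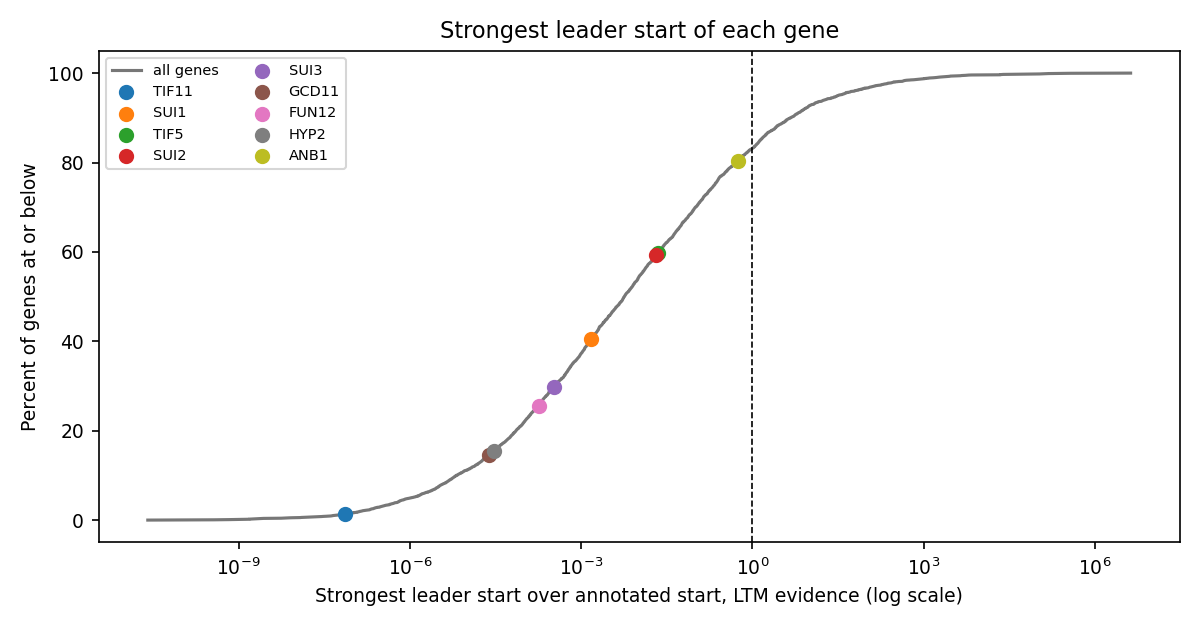
Percent of 4776 genes (vertical axis) at or below each ratio of LTM evidence, the strongest leader start over the annotated start (horizontal axis, log scale), as a grey line, with the 9 genes as coloured points; the dashed line marks a ratio of 1. ANB1 lies highest at 0.557, and the other 8 genes lie at or below 0.0222.

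Longer protein forms that begin before the annotated AUG received low scores. The 9 genes had 14 candidate extensions, all with near-cognate starts, in SUI2 (7), SUI1 (5), TIF11 and TIF5 (1 each). None was rated (0 of 14, exact 95% interval 0 to 23.2%), beside 4.85% of all candidate extensions. Their scores ran from 0.0116 in TIF11 to 0.0814 for a GUG 45 nucleotides upstream in SUI2. The strongest LTM evidence among them was 6.77 at a CUG 33 nucleotides upstream in SUI2, or 0.00131 times the annotated start. In TIF5 the AAG directly before the AUG scored 0.0548, and in SUI2 the AUA directly before it 0.0214.

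Shorter protein forms, which begin inside the gene and keep its frame, also scored low with a single exception. Of 61 truncations, 1 was rated (1.64%), beside 2.81% in the table. It was an AAG in FUN12, 855 nucleotides into the gene, with a product of 716 codons and a score of 0.506, just past the threshold. Its LTM evidence was 59.4, or 0.0172 times that of the annotated start of FUN12. All 9 AUG truncations were unrated, with scores from 0.0127 to 0.217, beside 10.8% rated in the table. The highest belonged to TIF5, 51 nucleotides downstream of its start. The next highest score among all truncations was 0.240, at an AAG of TIF11, 198 nucleotides into the gene.

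Internal ORFs in other frames were rated in 18 of 128 cases (14.1%, exact 95% interval 8.55 to 21.3), beside 10.1% in the table. Per the notes of the authors, many calls of internal ORFs and truncations are false and stem from elongating ribosomes. FUN12, the longest of the genes, held 8 of the 18. The highest was an AUG of SUI3, 79 nucleotides into the gene with an ORF of 6 codons. Its score of 0.848 was above the 0.798 of the annotated start, though its LTM evidence was 0.0858 times that of the annotated start. An AUG of FUN12, 40 nucleotides into the gene with an ORF of 52 codons, scored 0.834 with 0.0330 times the evidence. In SUI2 the highest was an AUU at 0.704, in SUI1 an AUG at 0.693, in ANB1 a UUG at 0.689, in TIF5 a GUG at 0.664 and in HYP2 a UUG at 0.559. GCD11 and TIF11 had no rated internal ORF, with highest scores of 0.448 and 0.385. Of 6 ORFs that begin after the stop codon, in HYP2 and TIF5, 0 were rated, beside 7.12% in the table, and the highest scored 0.351.

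The internal UUG of HYP2 and that of ANB1 lie at the same place, 22 nucleotides after the first base of the AUG, and each opens an ORF of 18 codons. They are shown because this start was rated in both paralogs.
HYP2, internal UUG (chrV:85686-85706, plus strand): aagaacatacctTTGaaactg
ANB1, internal UUG (chrX:525351-525371, minus strand): aagaacacacctTTGaaaatg
The LTM evidence was 40.9 in HYP2 and 55.4 in ANB1, although the evidence at the annotated start was 21.4 times higher in HYP2. Windows of 28 bases around this codon, beginning 12 bases before it, differ at 2 bases between the genes. Whether reads of HYP2 were placed in ANB1 was not tested.

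The other genes of initiation and of eIF5A modification were described with a list of 28 genes. It holds the subunits of eIF3, eIF4F and eIF2B with associated factors, the Gcn2 pathway, and DYS1 and LIA1, the enzymes that make the hypusine residue of eIF5A. All 25 of them with an ORF at the annotated start had it rated. Leader ORFs were rated in 29 of 143 cases (20.3%, exact 95% interval 14.0 to 27.8), in 14 of the 28 genes, close to the 21.8% of the whole table and to the 19.6% of the 9 genes. The highest-scoring were a CUG in TIF4632, a form of the scaffold eIF4G, 64 nucleotides upstream at 0.911, an AUG in GCN2, the eIF2 alpha kinase, 8 nucleotides upstream at 0.895, and a UUG in PAB1, the poly(A)-binding protein, 107 nucleotides upstream at 0.871. No candidate ORF began at the annotated start of GCN2, so its AUG was placed by the annotation alone. The CUG of TIF4632 had 0.194 times the LTM evidence of the annotated start, the highest such ratio among the 25 genes with both values, whose median was 0.000187. DYS1 and LIA1 had no rated leader ORF among 4 and 6 candidates. The only rated extension of the list, of 17 candidates, was in GCN1, with a score of 0.528.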

How the data were processed

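The authors deposited 1 table of candidate ORFs with the 11 LTM-treated libraries of ribosome footprints. It holds values from LTM data and from the CHX data set. CASAVA, bcl2fastq 2.17 and Bowtie2 are the tools named per the submitters' processing notes. Their settings are not stated there. Per the deposited notes, the forest score, the rating and the W and regression values are scores, the last 2 without a stated scaling. The deposited ratio divides the CHX value of an ORF by the largest among the ORFs that share its stop codon. The ending nosat of the column names is unexplained, and it is uncertain which libraries contributed. There are 0 columns for single libraries here.

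From these, ORFs were placed by their SK1 coordinates (given from 1) relative to the annotated start, and leader starts that the authors class within another coding region were left out of the background. A score above 0.5 was called rated. Intervals of shares are exact (Clopper-Pearson, 95%), treat candidates as independent and say nothing of variation between cultures. Percentiles place ties at the middle of their range. Context scores sum the log2 ratio of base frequency, with 1 added to each count, to genome composition. Starts were found in S288C by their distance from the annotated start, which gave the same codon for 36 of 46 leader starts, and each 28-base window around those 36 occurred once in that genome. Placing and scoring were checked on simulated data. Python 3.11.15, pandas 2.3.3, numpy 2.4.6 and scipy 1.17.1 were used. No test was made, since no value has a replicate. Genes, lists and threshold were chosen with earlier results of these data known. Every rated leader ORF, extension and truncation, every unrated extension range and AUG leader start, the highest internal ORF of each gene, and the 3 highest-scoring leader ORFs of the other list are named by rule. Other ORFs named beside them, and GCN1, DYS1 and LIA1, were chosen after their values were seen.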

Additional observations from a re-analysis of the deposited data

How the results depend on the processing

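The threshold decided most counts. Of the candidates, 72.7% passed a score above 0.1, 3.79% above 0.8 and 2.27% above 0.9, and 26.1% were rated at 0.5 without candidates inside or after the coding region. Of the leader ORFs, 100% passed above 0.1, 2.17% above 0.8 (the UUG of ANB1 alone) and 0% above 0.9. Of all leader candidates of the table, 96.0%, 5.02% and 1.22% passed these thresholds. Shares over the whole table at thresholds other than 0.5 are given for leader ORFs alone. The other counts at those thresholds have no background here. With AUG starts alone 0% were rated at 0.5. Near-cognate starts alone, 1 ORF per stop codon, and leaving out TIF5 gave 25.0%, 24.1% and 15.8%, inside the interval of the main share. A rated leader or extension ORF was found in 9 genes above 0.1, in 1 above 0.8 and in 0 above 0.9. Extensions and truncations passed in 11 cases above 0.1 and in 0 above 0.8 or above 0.9. The annotated start passed in 9, 7 and 6 genes above 0.1, 0.8 and 0.9. With rated leader starts alone, the median ratio of the strongest leader start to the annotated start was 0.0203, over 5 genes, and that of SUI1 fell to 0.000661. The median context percentile of the 9 genes was 66.1 from 3 bases and 58.0 from 6 bases before and 1 after. The exclusion of TIF5 and the thresholds for extensions and truncations were added after the data had been seen. No paired analysis was possible because each group had 1 library and values of single libraries were not analysed here.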

Other observations

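Among the starts that share the gene's stop codon, the one with the highest CHX regression value was not the annotated AUG in 4 of the 9 genes, beside 36% of all 4986 annotated starts, so this count is no result about the 9 genes. ORFs with other stop codons were left out of this comparison. In SUI3, whose CHX value summed over its stop codon (92.7) ranked at percentile 99.3 of annotated starts while its LTM evidence ranked at 41.8, this start was an AAG 165 nucleotides into the gene with a forest score of 0.125, and the annotated start had 0.231 times its value. As in HYP2, the sum of SUI3 is larger than its candidates described here can add up to. In TIF11 the start with the highest value was an AAG 198 nucleotides into the gene (the annotated start had 0.762 times its value), in GCD11 an AGG 192 nucleotides into the gene (0.493 times) and in TIF5 an AUU 417 nucleotides into the gene (0.147 times). None of these 4 starts was rated, and their LTM evidence was 0.000160, 0.00178, 3.3e-08 and 4.5e-05 times that of the annotated start in SUI3, TIF11, GCD11 and TIF5. In SUI1, SUI2, FUN12, HYP2 and ANB1 the annotated AUG was the strongest start of its stop codon. These starts were chosen after their values were seen.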
